A study of Mus musculus with 7 samples.

Results

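Transcripts of 10 genes for matricellular proteins were followed in myocardial tissue of mice with and without an infarct. The genes were chosen by name as matricellular genes, with earlier results of these data known, and are Postn (periostin), Tnc and Tnxb (tenascins), Sparc and Sparcl1 (the SPARC family), Thbs1, Thbs2 and Thbs3 (thrombospondins), and Ccn1 and Ccn2 (the CCN family, formerly Cyr61 and Ctgf). All 10 were found among the 56980 genes measured. What was measured is RNA, so the levels below are transcript levels and not amounts of protein.

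Matricellular proteins are secreted into the extracellular matrix but, unlike collagens, do little to bear load. They bind cell surface receptors such as integrins, growth factors and structural matrix proteins, and so tune how cells attach, migrate and respond to signals. Many of them are low in healthy adult heart and are known to appear in granulation tissue and scar after injury. Several, such as Postn, Tnc, Thbs1 and Ccn2, are known targets of TGF-beta signaling.

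The 7 mice were male, wild type and of the C57BL/6J strain, a common inbred laboratory line, and were obtained at 8 weeks of age. In 3 of them the left coronary artery was ligated (MI mice), and the other 4 went through the same surgery with no ligation (sham-operated mice). Myocardial tissue was taken 4 days after MI, and each mouse gave 1 library of total RNA. The study calls the tissue of the MI mice ischemic, but the part of the heart that was taken, the size of each infarct and whether mice shared a litter or a day of surgery are not given in the sources used here. The deposited unit is FPKM, the fragments counted on a gene scaled to its length and to the size of the library.

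The bases just upstream of the transcription start are shown for 4 of the genes because they set members with unlike levels side by side: Postn and Tnc, Ccn1, and Tnxb. RefSeq promoters on GRCm38.p6 were found for 7 of the 10 genes, in 9 windows, and Sparcl1, Thbs1 and Ccn2 were not among them. Each line gives the 250 bases before the start, 5′ to 3′ on the strand of the gene. Capitals mark matches, on either strand, to any of 5 motifs: the TEAD motif GGAATG, the AP-1 motif TGANTCA, the CArG box of SRF, the GC box GGGCGG and the TATA box TATAAA.
Postn, chr3:54360857-54361106, plus strand: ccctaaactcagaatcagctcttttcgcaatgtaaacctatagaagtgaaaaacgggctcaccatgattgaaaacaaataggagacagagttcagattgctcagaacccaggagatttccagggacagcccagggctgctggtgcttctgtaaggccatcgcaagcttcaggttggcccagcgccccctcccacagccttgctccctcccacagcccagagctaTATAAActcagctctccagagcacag
Tnc, chr4:64047016-64047265, minus strand: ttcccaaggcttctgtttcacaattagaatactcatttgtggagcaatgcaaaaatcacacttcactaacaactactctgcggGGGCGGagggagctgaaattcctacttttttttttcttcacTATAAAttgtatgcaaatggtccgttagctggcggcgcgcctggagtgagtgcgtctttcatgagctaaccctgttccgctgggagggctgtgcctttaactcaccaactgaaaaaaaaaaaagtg
Ccn1, chr3:145649986-145650235, minus strand: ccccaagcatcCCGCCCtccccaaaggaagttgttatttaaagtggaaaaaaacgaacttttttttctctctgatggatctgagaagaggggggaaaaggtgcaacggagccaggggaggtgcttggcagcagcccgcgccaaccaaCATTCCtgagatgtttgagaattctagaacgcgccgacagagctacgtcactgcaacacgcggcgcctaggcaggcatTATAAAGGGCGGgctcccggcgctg
Tnxb, chr17:34670285-34670534, plus strand: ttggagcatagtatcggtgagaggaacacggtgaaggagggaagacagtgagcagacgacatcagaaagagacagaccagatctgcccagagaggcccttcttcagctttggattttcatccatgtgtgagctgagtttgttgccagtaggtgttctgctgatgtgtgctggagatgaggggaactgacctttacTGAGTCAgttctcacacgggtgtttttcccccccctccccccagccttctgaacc
Of 32817 promoter windows of the same length, 12.4% held the TATA box, 32.7% the GC box, 12.6% the TEAD motif, 6.75% the AP-1 motif and 1.47% the CArG box. The Postn window shown held a TATA box whose first base lay 26 bases before the start, and a further Postn window, at chr3:54359017-54359266, held none of the motifs. The Ccn1 window held a TATA box at 25 bases that abutted a GC box at 19 bases, a further GC box at 239 bases on the opposite strand and, at 103 bases, the only TEAD motif found in the 9 windows. The Tnc window shown held a GC box and a TATA box, 167 and 126 bases before its start, and a second start put the same boxes at 246 and 205 bases. The Tnxb window held neither of these and had the only AP-1 match of the 9 windows, at 55 bases. These matches are letters in a window and were not tested for binding or use.

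The depths of the libraries, inferred from the steps of the FPKM values, ran from 19977713 to 23610869 fragments, and the ranges of the groups overlapped. MI replicate 2 stood with the sham-operated mice. Its median absolute log2 difference from them over the tested genes was 0.105 to 0.125, against 0.0832 to 0.105 between sham-operated mice and 0.41 to 0.502 for MI replicates 1 and 3. The share of fragments on mitochondrial genes was 27.1% to 28.0% in the sham-operated mice and 13.8%, 28.9% and 15.1% in MI replicates 1 to 3. Whether this library carries the right label was not tested. Each member's change is therefore given with and without it.

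Markers of several cell types moved with the difference between MI replicates 1 and 3 and the sham-operated mice. Cardiomyocyte markers, the defining genes of heart muscle, were present in every mouse. Their summed FPKM was 12300 to 13400 in the sham-operated mice and 8400, 12400 and 8800 in MI replicates 1 to 3, and 5 of 8 were lower at an unadjusted p under 0.05, as were 9.85% of all tested genes. The 8 fibroblast markers, of which 8 were higher at an unadjusted p under 0.05, as were 29.5% of all tested genes, summed to 130 to 149 in the sham-operated mice and to 2060, 230 and 1580 in the MI mice. For the 7 macrophage markers, all 7 higher by the same criterion, the sums were 158 to 204 against 1050, 190 and 897. Fibroblasts and macrophages are among the cells that populate an infarct in its first days.

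The summed mesothelial markers, genes of the outer lining of the heart, were above the sham range in MI replicate 2 as well, although Wt1 was not. The 6 mesothelial markers, of which 5 were tested and 5 were higher by the same criterion, summed to 4.16 to 9.69 in the sham-operated mice and 29.4, 20.9 and 43.5 in the MI mice. Upk1b and Krt19 of that list, and Fcgr1 of the macrophage list, were below an FPKM of 1 in every sham-operated mouse and passed the filter through the MI mice alone, so counts that include them support nothing. The 6 tendon and valve markers gave 1.9 to 3.27 against 62.4, 2.04 and 58.9, with Kera listed at 0 in every mouse. Fmod alone made 53.0 and 49.3 of the sums in MI replicates 1 and 3. Erythroid genes, which report blood, gave 371 to 774 against 2390, 591 and 1010. Endothelial markers gave 126 to 144 against 158, 119 and 170, and mural markers 247 to 285 against 304, 245 and 346. Platelet markers gave 9.61 to 11.3 against 24.4, 10.3 and 12.0, and Schwann cell markers 1.2 to 1.71 against 2.03, 1.75 and 2.61. Skeletal muscle markers gave 4.8 to 7.09 against 12.0, 6.56 and 10.8. That sum was nearly all Mybpc2, at 4.71 to 7.06 against 11.8, 6.51 and 10.8. Myh1, Myh2 and Actn3 were at or below 0.18 FPKM in every mouse, and Myh4 was listed at 0. At an unadjusted p under 0.05, 1 endothelial, 1 mural, 1 tendon and 1 skeletal muscle gene were higher and 1 mural gene lower, and 0 erythroid or platelet genes were either. No Schwann cell marker passed the filter. After adjustment limma called 0 genes of the 11 lists. In tissue RNA, fewer cells of a type and less RNA per cell cannot be told apart, and the part of cell makeup in the results below was not tested.

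Across the 10 genes the MI mice had higher mean levels in every case, from 1.12 times the sham mean for Tnxb to 47.1 times for Tnc. None passed the test over all genes: at an adjusted p of 0.05 (limma, Benjamini-Hochberg), 0 of the 9 tested members were called, beside 2 of 11431 genes called higher (0.0175%) and 1 called lower (0.00875%). At an unadjusted p under 0.05, 7 of the 9 were higher and 0 lower, where 29.5% of all tested genes were higher and 9.85% lower. The median log2 change was 2.06 over the 9 tested members and 0.21 over all tested genes. Thbs3 was below an FPKM of 1 in every sham-operated mouse and passed the filter only through the MI mice, as 122 of the 11431 tested genes did, so these figures describe the members that passed and do not support a difference. With no filter 8 of all 10 members were higher and 0 lower at an unadjusted p under 0.05, beside 20.6% and 4.77% of 30504 genes, and 0 passed after adjustment, beside 0.0656% of genes higher and 0.00328% lower. Tnc was not tested, since only 2 mice reached an FPKM of 1 and the filter asked for 3.

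Every MI mouse lay above every sham-operated mouse for 6 of the 10 genes: Postn, Tnc, Thbs2, Thbs3, Ccn1 and Ccn2. Of the 9 tested members 5 did so, and 16.1% of all tested genes. For Tnxb, Sparc, Sparcl1 and Thbs1 the groups overlapped. Without MI replicate 2, 7 of 8 tested members passed an adjusted p of 0.05 as higher, where 56.8% of 11264 tested genes did so, and the same 7 had an unadjusted p under 0.05, where 58.6% of genes did. The median log2 change was 2.97 over those members and 0.32 over those genes. That comparison rests on 2 MI mice against 4, and Tnxb was the tested member that did not pass it.

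**Figure D1:**
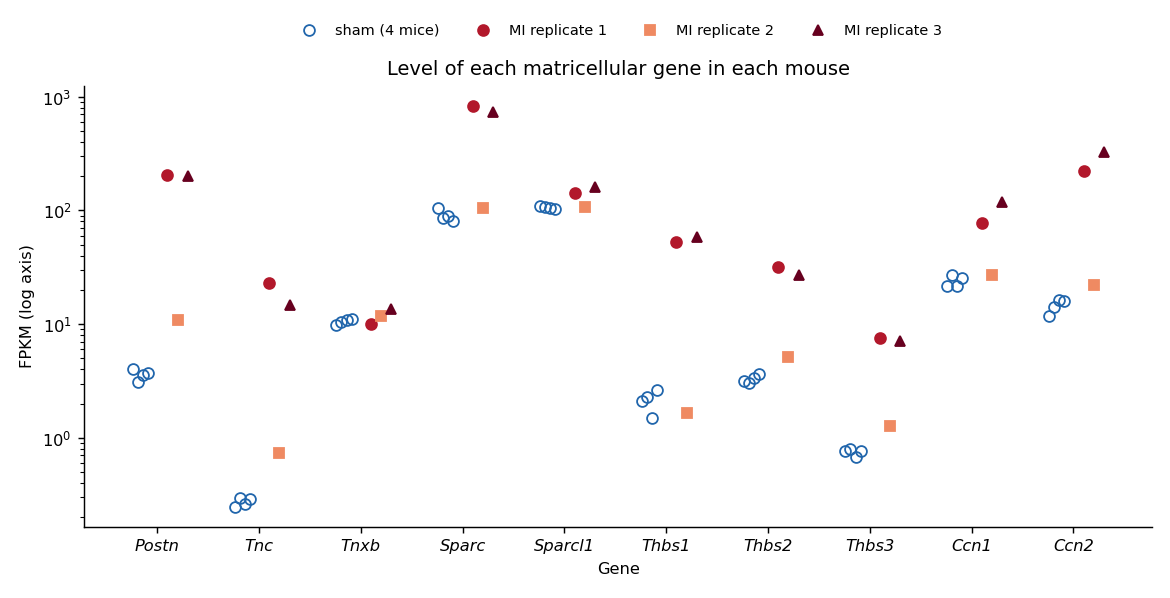
FPKM on a log axis for each of the 10 matricellular genes (x axis), with 1 mark per mouse: open circles for the 4 sham-operated mice and filled marks for the 3 MI mice. MI replicates 1 and 3 sit well above the sham-operated mice for Postn (206 and 200 against 3.12 to 4.06) and Tnc (23.2 and 14.8 against 0.247 to 0.297), MI replicate 2 (squares) sits near them, and for Tnxb all 7 mice lie between 9.78 and 13.5.

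Postn encodes periostin, a collagen-binding protein of activated fibroblasts that promotes collagen crosslinking (ENSMUSG00000027750, chr3:54361109-54391037, plus strand, GRCm38, 22 merged exons). Its level was 4.06, 3.12, 3.57 and 3.69 FPKM in sham replicates 1 to 4 and 206, 10.8 and 200 FPKM in MI replicates 1 to 3. The groups did not overlap, and MI replicate 2, the lowest MI mouse, was still 2.99 times the sham mean, against 57.0 and 55.4 times in the other MI mice. These are means of 3.61 ± 0.388 (SD, n = 4) and 139 ± 111 FPKM (SD, n = 3). The log2 change was 4.10 with an SE of 0.95 (limma adjusted p = 0.108), rank 7 by size among the 11431 tested genes. The exact two-sided permutation p was 0.0571, the smallest that 3 mice against 4 allow. Without MI replicate 2 the change was 5.47 with an SE of 0.086 (limma adjusted p = 3.29e-07). Behind these values stood 818 to 1101 fragments in the sham-operated mice and 54161, 2959 and 57078 in the MI mice, so counting error was small beside the spread between the MI mice.

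The tenascins are large multidomain matrix proteins, and the pair measured here had unlike levels and unlike changes. Tnc encodes tenascin-C, a counter-adhesive protein of embryonic and healing tissue that is scarce in healthy adult heart (ENSMUSG00000028364, chr4:63959785-64047015, minus strand, 27 merged exons). Its level was 0.247, 0.297, 0.263 and 0.29 FPKM in sham replicates 1 to 4, on 44 to 51 fragments each, and 23.2, 0.735 and 14.8 FPKM in the MI mice, on 3999, 132 and 2779 fragments. The groups did not overlap here either, and MI replicate 2 stood at 2.68 times the sham mean where the other MI mice stood at 84.4 and 54.1 times. With no filter its log2 change was 2.78 with an SE of 0.85 (limma adjusted p = 0.188), and the exact two-sided permutation p was 0.0571. Without MI replicate 2 the plain difference in mean log2 values was 3.94. On the log2(FPKM + 1) scale the change of a gene this low in the sham-operated mice is understated.

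Tnxb encodes tenascin-X, a tenascin of established connective tissue that associates with collagen fibrils (ENSMUSG00000033327, chr17:34670535-34719815, plus strand, 41 merged exons). Its level was 9.78, 10.4, 10.9 and 11.1 FPKM in sham replicates 1 to 4 and 10.1, 11.8 and 13.5 FPKM in MI replicates 1 to 3. The groups overlapped, since MI replicate 1 lay inside the sham range. The log2 change was 0.14 with an SE of 0.11 (limma adjusted p = 0.358, exact two-sided permutation p = 0.286), the smallest of the 9 tested members, and without MI replicate 2 it was again 0.14 (limma adjusted p = 0.309). It was 0.24 without MI replicate 1, 0.04 without MI replicate 3 and 0.34 with TPM. Its sign depended on the scaling between mice: it was -0.12 after quantile normalization and -0.05 after scaling by the median log-ratio. MI replicate 2 was not the lowest of the MI mice for Tnxb, where it stood at 1.11 times the sham mean against 0.954 and 1.28 times.

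**Figure D2:**
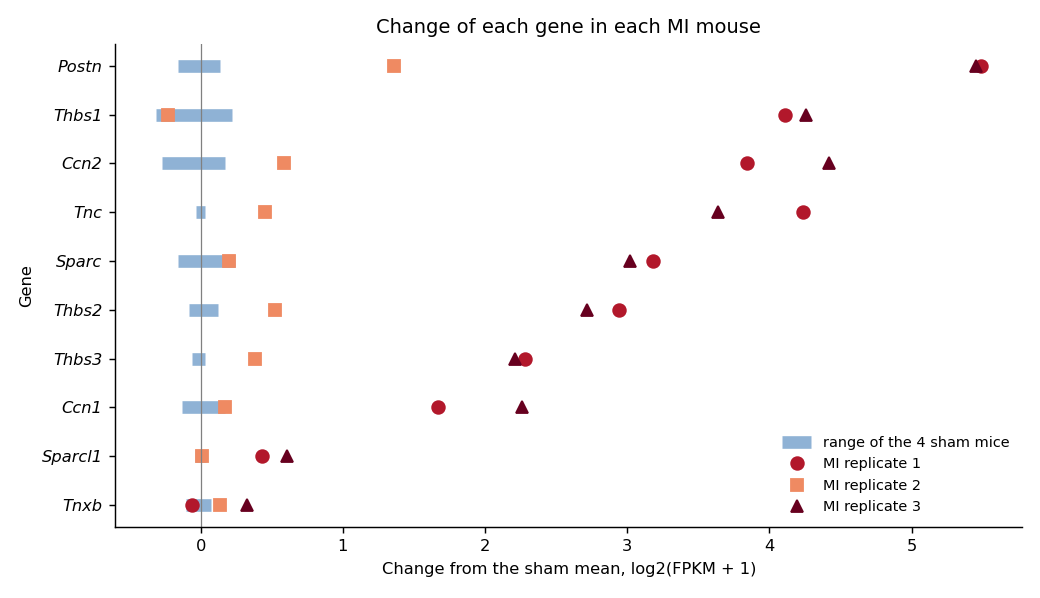
Change from the sham mean in log2(FPKM + 1) (x axis) for each gene (y axis), with 1 mark per MI mouse and a bar for the range of the 4 sham-operated mice. MI replicates 1 and 3 lie far to the right for most genes, with mean changes from 5.47 for Postn to 0.14 for Tnxb, while MI replicate 2 is at 1.36 for Postn and at or below 0.59 for the others.

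The SPARC family is named after a collagen-binding protein that helps collagen fibrils assemble. Sparc (ENSMUSG00000018593, chr11:55394500-55423183, minus strand, 12 merged exons) was already abundant without infarction, at 106, 85.2, 89.7 and 80.7 FPKM in sham replicates 1 to 4. In MI replicates 1 to 3 it was 826, 104 and 737 FPKM. MI replicate 2 lay inside the sham range, so the groups overlapped, while the other MI mice stood at 9.13 and 8.14 times the sham mean. The log2 change was 2.14 with an SE of 0.68 (limma adjusted p = 0.108, exact two-sided permutation p = 0.114). Without MI replicate 2 it was 3.10 with an SE of 0.12 (limma adjusted p = 3.54e-06).

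Sparcl1 encodes the relative hevin, a secreted protein made in many adult tissues (ENSMUSG00000029309, chr5:104079111-104113733, minus strand, 12 merged exons). Its level was 109, 107, 105 and 103 FPKM in sham replicates 1 to 4, the least variable of the 10 genes with a coefficient of variation of 2.39%. In MI replicates 1 to 3 it was 143, 107 and 162 FPKM. MI replicate 2 was within the sham range and the other MI mice above it, at 1.35 and 1.53 times the sham mean. The log2 change was 0.35 with an SE of 0.15 (limma adjusted p = 0.13, exact two-sided permutation p = 0.171), and without MI replicate 2 it was 0.52 with an SE of 0.067 (limma adjusted p = 0.000431). With all mice the change was 0.14 after scaling by the median log-ratio and 0.55 with TPM. Without MI replicate 3 it was 0.22.

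Thrombospondins are calcium-binding glycoproteins. Thbs1 and Thbs2 form trimers that restrain angiogenesis through the receptor Cd36, and thrombospondin-1 also activates latent TGF-beta, while Thbs3 belongs to the pentameric subgroup. Thbs1 (ENSMUSG00000040152, chr2:118111876-118127133, plus strand, 22 merged exons) was at 2.1, 2.29, 1.5 and 2.62 FPKM in sham replicates 1 to 4 and at 52.6, 1.65 and 58.5 FPKM in MI replicates 1 to 3. It was the member in which MI replicate 2 lay below the sham mean, at 0.775 times, while the other MI mice were at 24.7 and 27.5 times. Its log2 change of 2.72 therefore had an SE of 1.0 (limma adjusted p = 0.112, exact two-sided permutation p = 0.229), and without MI replicate 2 it was 4.19 with an SE of 0.14 (limma adjusted p = 2.61e-06). Thbs1 was also the most variable member among the sham-operated mice, with a coefficient of variation of 22.2% on 229 to 341 fragments.

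Thbs2 (ENSMUSG00000023885, chr17:14665500-14694235, minus strand, 21 merged exons) was at 3.14, 3.06, 3.36 and 3.66 FPKM in sham replicates 1 to 4 and at 32.0, 5.17 and 27.3 FPKM in MI replicates 1 to 3. The groups did not overlap. Thbs2 had a log2 change of 2.06 with an SE of 0.54 (limma adjusted p = 0.108, exact two-sided permutation p = 0.0571), and of 2.83 with an SE of 0.088 without MI replicate 2 (limma adjusted p = 1.84e-06). The third thrombospondin was the least abundant of them in the sham-operated mice. Thbs3 (ENSMUSG00000028047, chr3:89215180-89226837, plus strand, 20 merged exons) was at 0.772, 0.788, 0.675 and 0.76 FPKM in sham replicates 1 to 4 and at 7.48, 1.28 and 7.09 FPKM in MI replicates 1 to 3. These groups did not overlap either. Thbs3 reached the filter through the MI mice alone, and its log2 change was 1.62 with an SE of 0.44 (limma adjusted p = 0.108, exact two-sided permutation p = 0.0571). As for Tnc, the log2(FPKM + 1) scale understates the change of a gene this low. It was 2.31 with a pseudocount of 0.1, 2.14 with TPM and 1.42 after quantile normalization. Without MI replicate 2 the plain difference was 2.24, and the gene was not tested because only 2 of the mice left reached an FPKM of 1. The exons of Thbs3 share 318 bases with those of Mtx1 on the opposite strand. Whether counting used the strand is not given in the sources used here, so fragments from those bases could belong to either gene. The same holds for 665 bases of Ccn2 with Gm15270, 208 of Thbs1 with Gm29233, 176 of Tnc with 8030451A03Rik and 3 of Tnxb with Cyp21a2-ps.

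CCN proteins are short, cysteine-rich matrix proteins that bind integrins and growth factors, and both members here are known targets of the mechanosensitive factors YAP and TEAD. Ccn1 (ENSMUSG00000028195, chr3:145646976-145649981, minus strand, 5 merged exons) was at 21.6, 26.9, 21.7 and 25.5 FPKM in sham replicates 1 to 4 and at 78.1, 26.9 and 118 FPKM in MI replicates 1 to 3. MI replicate 2 was above sham replicate 2 only beyond the third digit, so the groups were separated by a very narrow margin. Ccn1 had a log2 change of 1.37 with an SE of 0.44 (limma adjusted p = 0.108, exact two-sided permutation p = 0.0571), and of 1.97 with an SE of 0.17 without MI replicate 2 (limma adjusted p = 7.42e-05).

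Ccn2 encodes connective tissue growth factor, a widely used marker of fibrosis (ENSMUSG00000019997, chr10:24595442-24598683, plus strand, 3 merged exons). Its level was 11.7, 14.0, 16.3 and 16.0 FPKM in sham replicates 1 to 4 and 220, 22.1 and 329 FPKM in MI replicates 1 to 3. MI replicate 2 was above all sham-operated mice, at 1.53 times their mean, and the other MI mice were at 15.1 and 22.7 times. Ccn2 had a log2 change of 2.95 with an SE of 0.83 (limma adjusted p = 0.108, exact two-sided permutation p = 0.0571), and of 4.13 with an SE of 0.19 without MI replicate 2 (limma adjusted p = 6.70e-06). Both CCN genes were higher in MI replicate 3 than in MI replicate 1, with a log2 difference of replicate 1 minus replicate 3 of -0.59 for Ccn1 and -0.58 for Ccn2. For Tnc that difference was 0.61, and for the other members it ran from -0.39 to 0.22.

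Relatives within a family were compared inside each mouse, as the difference of their log2(FPKM + 1) values, which removes most of the effect of scaling between mice, though not for low genes, because 1 is added to each value. There were 6 such pairs, and with 3 mice against 4 none could reach a p of 0.05. Tnc minus Tnxb averaged -3.18 in the sham-operated mice, in a range of -3.24 to -3.11, and was 1.13, -2.88 and 0.13 in MI replicates 1 to 3. The groups did not overlap and the change was 2.64 (exact two-sided permutation p = 0.0571, adjusted over the 6 pairs 0.114). On the deposited lengths Tnc was above Tnxb in MI replicates 1 and 3, and below it in the other 5 mice. On the exon lengths of GENCODE M21, an alternative chosen after seeing the data, the differences were 0.98, -3.04 and -0.03 in MI replicates 1 to 3, so the order in MI replicate 3 depends on the lengths. The change was 2.65 on those lengths and 4.00 with a pseudocount of 0.1.

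Ccn1 minus Ccn2 went from an average of 0.69 in the sham-operated mice, in a range of 0.39 to 0.89, to -1.48, 0.27 and -1.47 in MI replicates 1 to 3. The groups did not overlap and the change was -1.58 (exact two-sided permutation p = 0.0571, adjusted 0.114). Sparc minus Sparcl1 was -0.35 to -0.04 in the sham-operated mice and 2.52, -0.04 and 2.18 in the MI mice, a change of 1.79 with overlap (exact two-sided permutation p = 0.114, adjusted 0.171). Which relative was higher in the sham-operated mice depended on the gene lengths, since on those of GENCODE M21 Ccn1 was above Ccn2 in 2 of the 4 and Sparc above Sparcl1 in 1 of the 4. The changes did not, at -1.61 and 1.79.

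The thrombospondins gave less. Thbs2 minus Thbs3 was 1.18 to 1.41 in the sham-operated mice and 1.96, 1.44 and 1.81 in the MI mice, a change of 0.44 without overlap (exact two-sided permutation p = 0.0571, adjusted 0.114). With a pseudocount of 0.1 in place of 1 that change was -0.02 (exact two-sided permutation p = 0.914), and with the lengths of GENCODE M21 and with TPM it was 0.19 and 0.25 (exact two-sided permutation p = 0.171 for both), so it rested on the scale. Thbs1 minus Thbs2 changed by 0.65 and Thbs1 minus Thbs3 by 1.09, both with overlap (exact two-sided permutation p = 0.286, adjusted 0.286), and in both MI replicate 2 lay below every sham-operated mouse. Without MI replicate 1 these were 0.40 and 0.72, and without MI replicate 3 they were 0.21 and 0.61. Leaving out MI replicate 2 gave changes of 3.80 for Tnc minus Tnxb, -2.16 for Ccn1 minus Ccn2, 2.58 for Sparc minus Sparcl1, 0.59 for Thbs2 minus Thbs3, 1.35 for Thbs1 minus Thbs2 and 1.94 for Thbs1 minus Thbs3. Each then had an exact two-sided permutation p of 0.133, the smallest that 2 mice against 4 allow.

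**Figure D3:**
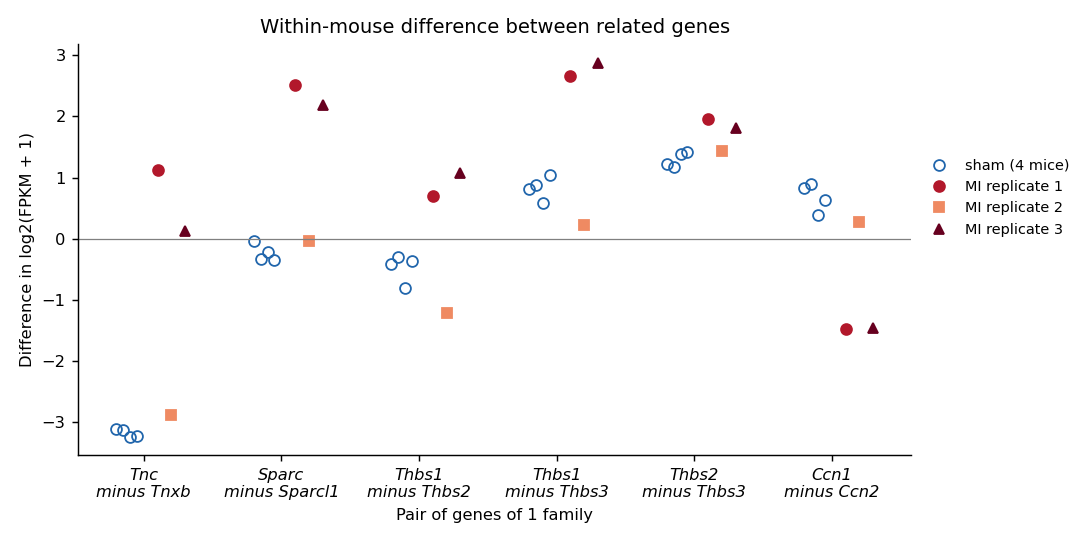
Difference in log2(FPKM + 1) between 2 genes of a family within each mouse (y axis) for the 6 pairs (x axis), open circles for the 4 sham-operated mice and filled marks for the 3 MI mice. Tnc minus Tnxb goes from about -3.18 to 1.13 and 0.13 in MI replicates 1 and 3, and Ccn1 minus Ccn2 from 0.69 to -1.48 and -1.47, with MI replicate 2 nearer to the sham-operated mice in both.

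Levels per length were ordered in the same way in all 4 sham-operated mice and in MI replicate 2, from Sparcl1 through Sparc, Ccn1, Ccn2, Tnxb, Postn, Thbs2, Thbs1 and Thbs3 to Tnc. Over the sham-operated mice the ranges of neighbours overlapped only for Sparcl1 with Sparc and for Postn with Thbs2. MI replicates 1 and 3 shared another order, from Sparc through Ccn2, Postn, Sparcl1, Ccn1, Thbs1, Thbs2, Tnc and Tnxb to Thbs3. Over the 3 MI mice the ranges of all neighbours in the order of mean levels overlapped except those of Tnxb and Thbs3. The gene lengths behind the FPKM values equal the exon length of GENCODE M21 only for Ccn1, and for Thbs3 they differ most, at 8895 against 4823 bases. On the lengths of GENCODE M21 the sham-operated mice no longer shared 1 order, with Sparc and Sparcl1, and Ccn1 and Ccn2, changing places, and Tnxb changed places with Thbs3 in MI replicate 1 and with Tnc in MI replicate 3. MI replicate 2 then had Postn above Tnxb and Thbs3 above Thbs1, which no sham-operated mouse had. Orders between such neighbours and the shares below hold for the deposited lengths only.

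Together the 10 genes summed to 248 to 269 FPKM in the sham-operated mice and to 1600, 291 and 1670 FPKM in MI replicates 1 to 3. Sparcl1 held 40.6% to 42.3% of that sum in the sham-operated mice, and 8.96%, 36.7% and 9.74% in the MI mice. Postn held 1.23% to 1.51% against 12.9%, 3.71% and 12.0%. The share of Ccn2 was 4.37% to 6.45% against 13.7%, 7.6% and 19.7%, and that of Sparc 32.6% to 39.5% against 51.7%, 35.6% and 44.2%. The pool thus passed from one shared by Sparc and Sparcl1 to one of Sparc, Ccn2 and Postn in MI replicates 1 and 3. Tnc, despite the highest ratio of means, held 1.45% and 0.89% there.

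**Figure D4:**
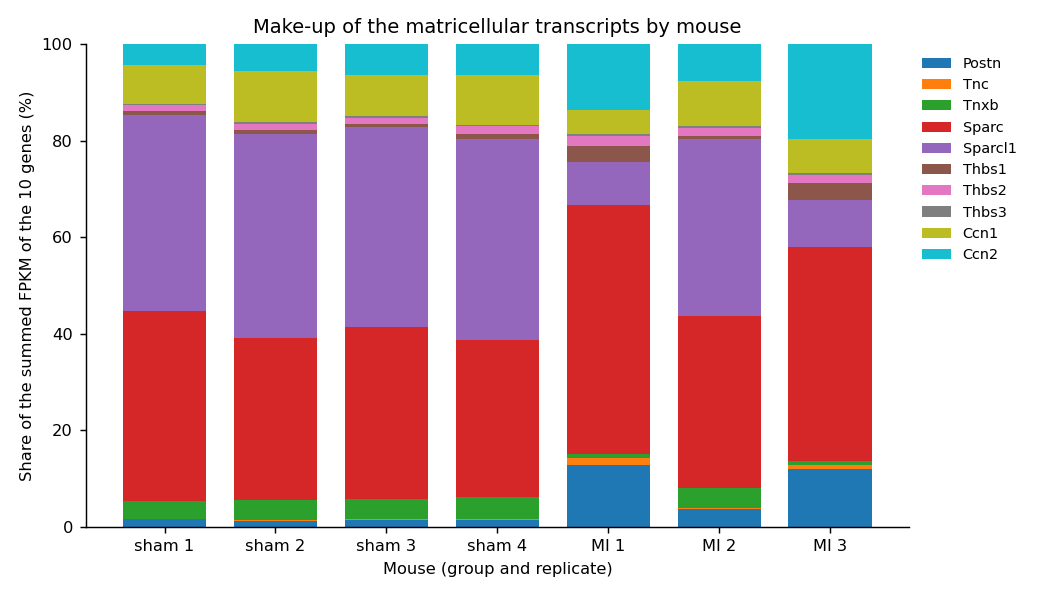
Share of each gene in the summed FPKM of the 10 genes (y axis, %) for each mouse (x axis). In MI replicates 1 and 3 the share of Sparcl1 is 8.96% and 9.74%, against at least 40.6% in the sham-operated mice, and those of Postn and Ccn2 are larger, while MI replicate 2 resembles the sham-operated mice.

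On the log2(FPKM + 1) scale the members did not shift by one common fraction in MI replicate 2. Its log2 change was 24.9% of the mean change of MI replicates 1 and 3 for Postn, 18.4% for Thbs2, 17.0% for Thbs3 and 14.2% for Ccn2. It was 11.3% for Tnc, 8.63% for Ccn1, 6.58% for Sparc, 2.26% for Sparcl1 and -5.42% for Thbs1. For Tnxb, where the mean change was 0.14, it was 106%. The 1 added to each value lowers the percentage of low genes such as Tnc and Thbs3. As plain ratios to the sham mean, Postn stood at 2.99 times in MI replicate 2, against 57.0 and 55.4 times in the other MI mice. Tnc stood at 2.68 times in MI replicate 2, against 84.4 and 54.1 times, so the gap between Postn and Tnc depends on the scale. In absolute terms that mouse stood farthest from the sham mean for Postn, at 1.36 where the sham range was -0.16 to 0.14.

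The fibroblast markers moved with the members, so each member's log2 change was also set against the mean change of the 8 markers, which was 2.80, 0.56 and 2.64 in MI replicates 1 to 3. After this subtraction Postn still stood at 2.69, 0.80 and 2.81, above the sham range in each MI mouse. Ccn2 stood at 1.05, 0.03 and 1.79, and Thbs1 at 1.31, -0.79 and 1.62. Tnc stood at 1.45, -0.12 and 1.00 on the log2(FPKM + 1) scale. Thbs2 stayed within its sham range, at 0.14, -0.04 and 0.08, whereas Sparc, at 0.39, -0.36 and 0.38, lay outside its own, above it in MI replicates 1 and 3 and below it in MI replicate 2. Ccn1 stood at -1.12, -0.39 and -0.37 and Thbs3 at -0.52, -0.18 and -0.43, on the log2(FPKM + 1) scale each below the markers. Tnxb, at -2.86, -0.42 and -2.30, and Sparcl1, at -2.37, -0.55 and -2.03, were farthest below them in MI replicates 1 and 3, and Thbs1 was in MI replicate 2. The 1 added to each value shrinks the changes of low genes most, so the places of Thbs3 and Tnc depend on this scale. As plain ratios to the sham mean, Thbs3 stood at 9.99, 1.7 and 9.46 times in MI replicates 1 to 3. Tnc stood at 84.4, 2.68 and 54.1 times. Whether the marker mean tracks the number of fibroblasts was not tested, and several of its genes, such as Col1a1, Col3a1 and Dcn, are themselves matrix genes.

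Other genes of the same biology were read from 5 lists of 72 genes, 56 of them tested, which name matricellular relatives, receptors, matrix partners, TGF-beta genes, and YAP, TEAD and SRF factors with their other targets. None passed an adjusted p of 0.05 with all mice. Of the 12 matrix partners, the collagens and other fibers that matricellular proteins bind and the enzymes that process them, 11 were tested, and at an unadjusted p under 0.05 11 were higher and 0 lower, beside 29.5% and 9.85% of all tested genes, with a median log2 change of 2.95. Lox, the collagen-crosslinking enzyme, was at 0.381 to 0.586 FPKM in the sham-operated mice and 52.5, 1.94 and 43.1 FPKM in the MI mice, a log2 change of 3.72, and like Thbs3 it passed the filter through the MI mice alone. Col1a1 was at 17.1 to 23.0 against 768, 40.5 and 569 FPKM (3.69), and Col3a1 at 24.7 to 35.2 against 830, 67.0 and 575 FPKM (3.37). These are the main fibrillar collagens of scar.

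Among 16 other matricellular genes 7 were tested, with a median log2 change of 1.26. At an unadjusted p under 0.05, 5 were higher and 0 lower, beside 29.5% and 9.85% of all tested genes. Thbs4, a pentameric relative of Thbs3, was at 0.483 to 0.799 against 71.1, 3.01 and 67.6 FPKM, a log2 change of 4.05, and it too passed the filter through the MI mice alone. Ccn5 was at 1.88 to 3.91 against 88.5, 3.71 and 91.3 FPKM (3.16), with MI replicate 2 inside the sham range. Fstl1, a secreted relative of Sparc, was at 17.2 to 19.6 against 273, 23.8 and 247 FPKM (2.64). Tgfbi and Ccn3 had log2 changes of 1.26 and 0.94. The other tested relatives were Smoc2 (9.05 to 11 against 11.7, 9.34 and 12.8 FPKM) and Spock2 (0.728 to 1.31 against 1.11, 1.63 and 1.33 FPKM). These 4 fall outside the naming rule.

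Receptors had smaller changes. Of 16 receptors and binding partners 14 were tested. At an unadjusted p under 0.05, 9 were higher and 1 lower, beside 29.5% and 9.85% of all tested genes. Their median log2 change was 0.70, against 0.21 for all tested genes. The integrin subunit Itgb5, which pairs with the alpha v subunit to bind periostin, was at 16.8 to 18.2 against 78.8, 20.2 and 73.8 FPKM (1.43). The endocytic receptor Lrp1 was at 8.33 to 9.11 against 34.0, 11 and 31.7 FPKM (1.31), and the syndecan Sdc4 at 4.91 to 7.65 against 28.3, 6.22 and 20.1 FPKM (1.22). The gene lower at an unadjusted p under 0.05 was Cacna2d1, a calcium channel subunit and thrombospondin receptor, at 10.5 to 11.7 against 7.41, 10.3 and 7.66 FPKM, which falls outside the naming rule and was picked after its values were seen.

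Of 10 TGF-beta ligands, binding proteins and receptors 8 were tested, with 5 higher and 0 lower at an unadjusted p under 0.05 and a median log2 change of 0.87. The ligand Tgfb3 was at 5.38 to 6.48 against 58.4, 8.06 and 53.0 FPKM (2.20), the latent TGF-beta binding protein Ltbp3 at 3.34 to 3.57 against 23.1, 4.11 and 19.9 FPKM (1.61), and the receptor Tgfbr1 at 2.16 to 2.52 against 11.2, 3.28 and 9.72 FPKM (1.29). Of 18 YAP, TEAD and SRF factors and other targets 16 were tested, with 6 higher and 1 lower, where 29.5% and 9.85% of all tested genes were, and a median of 0.27, near the 0.21 of all tested genes. Its leading genes were Ankrd1, a cardiac stress gene (53.3 to 71.6 against 324, 59.9 and 353 FPKM, 1.61), the receptor kinase Axl (10.1 to 11.3 against 30.8, 12.8 and 32.1 FPKM, 1.09) and the SRF cofactor Mrtfa (1.14 to 1.51 against 3.63, 1.18 and 2.94 FPKM, 0.59). Ccn1 and Ccn2 were above that median with 1.37 and 2.95. Without MI replicate 2, 54 of the 72 genes were tested, and 43 passed an adjusted p of 0.05 as higher and 3 as lower, beside 56.8% and 14.9% of all genes.

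**Figure D5:**
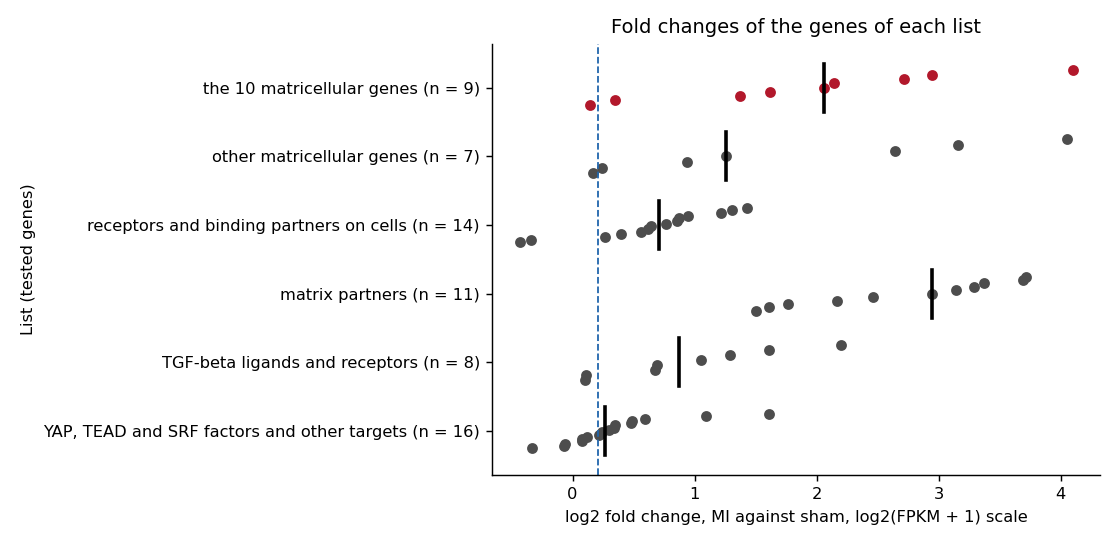
Log2 change of MI against sham (x axis, log2(FPKM + 1) scale) for each tested gene of the 10 matricellular genes (red, n = 9) and of the 5 lists (gray), with a black bar for the median of each list and a dashed line for the median of all tested genes, 0.21. The matrix partners have the highest median, 2.95, the matricellular genes stand at 2.06, and the YAP, TEAD and SRF list at 0.27.

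The genes closest in profile to each member were found over the 7 mice by the mean absolute difference in log2 change from the sham mean, among the other 11430 tested genes, or 11431 for Tnc, which was not itself tested. Postn was closest to Thbs4, at 0.0545, and then to Lox, at 0.19. For Tnc these were Serpinb1a (0.0861) and Fstl1 (0.117), and for Sparc they were Col5a1 (0.0462) and Mmp2 (0.0815). Ccn2 was nearest to Mgp (0.156) and Fn1 (0.21), and Ccn1 to Nbl1 (0.0985) and Gpr65 (0.1).

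For Thbs1 the nearest were Nmrk2 (0.195) and Ptn (0.239), the most distant neighbours found for any member. Thbs2 had Nupr1 (0.0654) and Ssc5d (0.0717), and Thbs3 had Gm13456 (0.0481) and Pla2g7 (0.0501). Tnxb, with Lsm2 (0.0488) and Adcy5 (0.0524), and Sparcl1, with Sh2b3 (0.0219) and Zc3h10 (0.0225), were nearest to genes with little change. Among the members themselves Tnxb and Sparcl1 were closest, at 0.176, followed by Thbs3 and Ccn1, at 0.187. Postn and Tnxb were farthest apart, at 1.77. As plain ratios to the sham mean, Thbs3 stood at 9.99 and 9.46 times in MI replicates 1 and 3, and Ccn1 at 3.26 and 4.94 times. The distances thus depend on the log2(FPKM + 1) scale, which shrinks the changes of low genes. These distances describe 7 mice, among which the separation of MI replicates 1 and 3 from the rest is shared by many genes.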

How the data were processed

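Total RNA of myocardial tissue from 3 MI and 4 sham-operated mice was sequenced, 1 library per mouse, and the labels gave each library its group. For 56980 genes, FPKM values are what the authors deposited. The submitters' processing notes name CASAVA 1.8, HISAT2, SAMtools 1.3.1, edgeR and the mm10 build, with no roles. The annotation, the counting program and the use of strand are not given in the sources used here. Identifiers were matched to GENCODE M21 on GRCm38 (52073, or 91.4%), and FPKM were not rescaled between mice. Whole fragments were recovered from the steps of the FPKM values for 30503 of 30504 genes above 0, within 0.05 of a whole number, and gave 97.6% to 98.8% of each depth.

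Values were analysed as log2(FPKM + 1), with a pseudocount of 1. Genes below an FPKM of 1 in more than 4 of the 7 mice were dropped, and the other 11431 were fitted with limma 3.58.1 (lmFit, eBayes with trend) in R 4.3.3 without covariates, with Benjamini-Hochberg adjustment over all of them and a threshold of 0.05. Single genes and pairs were tested by exact two-sided permutation over the 35 splits of 7 mice, as the doubled smaller one-sided share. The code was tested on simulated data. Python 3.11.15, pandas 2.3.3, NumPy 2.4.6 and SciPy 1.17.1 were used for other steps.

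The 10 genes, the lists and the pairs were chosen with earlier results of these data known. All members are named, with up to 3 genes of each list by size of log2 change among its tested genes, and the 2 nearest profiles of each member. Each mouse was left out in turn, and the other alternatives were voom on recovered fragments, sample weights, no trend in limma, the replicate number as a block, TPM, median log-ratio scaling, quantile normalization, the filter set on the mean or dropped, and 0.1 as the pseudocount. List counts without MI replicate 2 and pairs on GENCODE M21 lengths were added after seeing the data. Replicate numbers did not pair the mice: the correlations of deviations between mice of the same number were 0.07, -0.02 and -0.08.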

Additional observations from a re-analysis of the deposited data

How the results depend on the processing

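No member passed an adjusted p of 0.05 as higher, under limma with Benjamini-Hochberg adjustment, in the main analysis or under any alternative except 2: without MI replicate 2, where 7 passed, and with sample weights, where 9 passed. The sample weights did not converge and put a weight of 437 on MI replicate 3, against 0.0906 and 0.0217 on MI replicates 1 and 2, so that fit rests on 1 MI mouse. Over the fits that each left out 1 mouse, the members called ran from 0 to 7, the members without overlap from 5 to 8 of the 9 tested with all mice (main 5), the genes higher from 0 to 6394 (main 2) and the genes lower from 0 to 1677 (main 1), with the highest value of each without MI replicate 2. Genes higher numbered 5 with a pseudocount of 0.1, 20 with no filter, 10 with quantile normalization, 10 with the median log-ratio, 7636 with sample weights and 1 with voom on recovered fragments. With the filter set on the mean they numbered 0 (3639 unadjusted, p under 0.05), and with the replicate block 0 (1770 unadjusted). Genes lower numbered 5 with quantile normalization, 4 with the median log-ratio, 2316 with sample weights, 0 with the filter set on the mean (1101 unadjusted), 0 with TPM (560) and 0 with the replicate block (562). The causes were not tested. Scaling moved the median log2 change of all tested genes from 0.21 to 0.42 with TPM, to -0.03 with quantile normalization and to 0.05 with the median log-ratio. Tnxb turned to -0.12 with quantile normalization and to -0.05 with the median log-ratio. The change of Thbs2 minus Thbs3 turned to -0.02 with a pseudocount of 0.1. The directions of the other tested members and of the other 5 pairs held under every alternative run, the lengths of GENCODE M21 for the pairs included. Where replicate numbers served as a block, no member passed (0), as in the main analysis. With 3 mice against 4 the exact tests could not go below 0.0571. Tnc, on 44 to 51 fragments in each sham-operated mouse, was tested only without the filter or with the filter on the mean.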

Other observations

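Some genes of the lists were too low in the sham-operated mice to pass the filter and were not tested, and those named here were picked after their values were seen. Comp, the pentameric thrombospondin of cartilage and tendon, was at 0.353 to 0.487 FPKM in the sham-operated mice and at 109, 0.932 and 97.3 FPKM in MI replicates 1 to 3. Spp1, which encodes osteopontin, was at 0.186 to 0.704 against 20.7, 0.707 and 10 FPKM. Ltbp2, a matrix protein of the latent TGF-beta binding family, was at 0.298 to 0.419 against 30.5, 0.996 and 34.8 FPKM, and the fibril-associated collagen Col12a1 at 0.0698 to 0.0907 against 8.77, 0.182 and 8.47 FPKM. The integrin subunit Itgb3 was at 0.186 to 0.286 against 2.80, 0.471 and 2.17 FPKM. In these 5 genes every MI mouse lay above every sham-operated mouse, as in 16.1% of all tested genes, and they were picked for their values. Tnn, a further tenascin, was listed at 0 in all sham-operated mice and in MI replicate 2, and at 1.90 and 0.732 FPKM in MI replicates 1 and 3.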
